A study of Mus musculus with 12 samples.

Results

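The change in gene expression from a companion intraepithelial lymphocyte (IEL) to a CD8αα IEL was compared between libraries labelled as progeny of CD4+ T cells and libraries labelled as progeny of CD8αβ+ T cells. IEL are lymphocytes lodged in the lining of the gut. For each gene the quantity tested was a difference of differences, called the interaction here: the log2 change from CD4 IEL to CD8αα from CD4, minus the log2 change from CD8αβ IEL to CD8αα from CD8αβ. A positive value means that CD8αα from CD4 stood higher against CD4 IEL than CD8αα from CD8αβ stood against CD8αβ IEL. The groups were sorted separately and no cell was followed. The words change, rose and fell therefore compare group levels, and progeny follows the labels. Of 12622 genes tested, 323 differed at an adjusted p under 0.05 (edgeR's quasi-likelihood test), which is 2.56% of the genes tested. Of these 323 genes, 152 had a positive interaction (1.2% of genes tested) and 171 a negative one (1.35%). They are called higher and lower below, which is not a statement on expression level. A fit with the replicate number as a block within the CD8αβ progeny, where same-numbered libraries deviated together, called 585 genes, 321 of the 323 among them. Each gene was then sorted by the group whose mean set the difference, which could be a companion group (CD4 IEL or CD8αβ IEL) or a CD8αα group.

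The 12 libraries were bulk RNA-seq of sorted small-intestinal IEL, with 3 libraries in each of 4 groups. All groups came from Rag2–/– mice, which cannot make T or B cells but keep natural killer and other innate lymphoid cells. The recipients had been given T cells from the lymph nodes of Themis WT donors by vein, either conventional CD4+ cells or CD8αβ+ cells, and were examined 1 week later. CD4 IEL (TCRβ CD4+) and CD8αα from CD4 (TCRβ CD8αα+) are labelled as CD4 progeny. CD8αβ IEL (TCRβ CD8αβ+) and CD8αα from CD8αβ (TCRβ CD8αα+) are the CD8αβ counterparts. The labels state neither the age or sex of the mice nor whether each library came from its own recipient, so p-values measure the spread between these libraries, which may be technical.

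CD4 and CD8αβ T cells recognise antigen on MHC class II and class I molecules, and CD4 and CD8αβ act as their coreceptors. In the gut epithelium T cells can take up CD8αα, a homodimer that binds a class I-like molecule of epithelial cells and is regarded as a modulator of receptor signalling rather than a coreceptor. CD4 T cells that do so lose the helper factor ThPOK (Zbtb7b) while Runx3 and T-bet act, and gain cytotoxic genes.

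Library totals ran from 5620257 to 11070734 counts. Several features of the CD8αα libraries bear on every value below. All 6 companion libraries held transcripts of Y-linked genes, at a summed 234 to 449 CPM (counts scaled to the library total). Among the CD8αα libraries, replicate 3 of CD8αα from CD4 (363 CPM) and replicate 2 of CD8αα from CD8αβ (321 CPM) held them. The other 4 CD8αα libraries were at 0.342 to 1.03 CPM and had 373 to 645 CPM of Xist. The markers of T cells were uneven. The companions CD4 IEL and CD8αβ IEL held Cd5 at 694 ± 42.8 and 368 ± 49.2 CPM (mean ± SD, n = 3), but CD8αα from CD4 and from CD8αβ at 3.399 ± 4.35 and 0.811 ± 0.495. Cd2 and Cd3e were likewise low in both CD8αα groups: Cd2 had means of 1.204 and 0.557 CPM against 145 and 289 in the companions, and Cd3e 8.24 and 18.4 against 557 and 494. Lck was at 1733 and 1941 CPM in the CD8αα groups and 2240.5 and 2232 in the companions, and Cd3g was higher in the CD8αα groups, at 2128 and 3549 against 449 and 945. Markers of natural killer and innate lymphoid cells were uneven too. Klrb1c was high in the CD8αα groups (205 and 332 CPM against 15.8 and 8.03), while Eomes (0.156 and 0.249 CPM) and Ncr1 (2.203 and 1.06) were near 0 there. Klre1 was at 51.1 and 7.02 CPM against 4.54 and 29.2, and Itga2 at 17.2 and 15.9 against 17.1 and 4.14. Their whole list summed to 9.01e+03 to 1.13e+04 and 1.24e+04 to 1.56e+04 CPM in the CD8αα groups. In the companions it summed to 2.97e+03 to 3.15e+03 and 3.30e+03 to 3.80e+03. Most of the sum in the CD8αα groups came from members of the list that are not named in this paragraph. Whether cells of the host were among the sorted CD8αα cells was not tested. In bulk RNA, fewer cells of a type and less RNA per cell cannot be told apart.

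The sorting markers are a check and no finding. Cd4 read 1749, 1583 and 1593 CPM for CD4 IEL, 2.56, 2.98 and 3.28 for CD8αα from CD4, 11.6, 42.3 and 15.8 for CD8αβ IEL, and 3.55, 9.35 and 7.93 for CD8αα from CD8αβ. Cd8a read 45.7, 48.4 and 47.6 CPM for CD4 IEL, 2433, 2692 and 2826 for CD8αα from CD4, 2174, 2224 and 2085 for CD8αβ IEL, and 2748, 2904 and 3251 for CD8αα from CD8αβ. Cd8b1 read 6.98, 4.44 and 3.74 CPM for CD4 IEL, 15.4, 16.4 and 20.6 for CD8αα from CD4, 1167, 1087 and 1119 for CD8αβ IEL, and 3.46, 2.87 and 2.53 for CD8αα from CD8αβ. The level of each marker was high in the groups sorted for its protein and low in the others. Their interactions were -7.34 for Cd4, 5.35 for Cd8a and 10.32 for Cd8b1. Themis, whose wild-type donors the labels name, fell in both progenies (-5.596 and -4.54 log2), and its interaction did not pass (-1.05 ± 0.28 log2 ± SE, adjusted p = 0.0692, edgeR). It did pass with the replicate block (adjusted p = 0.0352 over all groups and 0.0234 within the CD8αβ progeny, edgeR) and in DESeq2's Wald test (0.0188). Runx3 rose in both, by 0.4996 and 0.67, with an interaction of -0.17 ± 0.20 (adjusted p = 0.721, edgeR).

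The companions set most of the differences. CD8αβ IEL set 168 of the 323 genes (52.0%), CD4 IEL 94 (29.1%), CD8αα from CD8αβ 38 (11.8%) and CD8αα from CD4 23 (7.12%), so 262 genes (81.1%) were set by a companion group and 61 (18.9%) by a CD8αα group. The sort reads the same 4 means as the test and is a description. In the pairwise tests of the same model, 3655 genes (29.0%) differed between CD4 IEL and CD8αβ IEL, and 547 (4.33%) between the CD8αα groups, 236 higher (1.87%) and 311 lower (2.46%) in CD8αα from CD4. Of the 323 genes, 247 were called between the companions alone, 35 between the CD8αα groups alone and 40 in both, of which 26 ran in opposite directions in the 2 pairs. The median absolute interaction was 1.71 log2. It was 1.38 where CD4 IEL set the difference, 1.80 for CD8αβ IEL, 1.62 for CD8αα from CD4 and 2.29 for CD8αα from CD8αβ. In 51 genes the 2 pair differences lay within 0.5 log2 of each other in size, so their class is a close call. Those named below include Gzmk, Klrb1c, Hk2, Zfp36, Itgax, Prf1, H2-Eb1, Pdk1, Zfp36l1, Grb10, Tex2, Tmem154, Gmfg and Sh2d1a. H2-Eb1 was nearly tied, at -1.527 between the companions and 1.529 between the CD8αα groups. Over all genes tested, the libraries of the companions did not overlap in 5240 (41.5%) and those of the CD8αα groups in 3642 (28.9%). The setting group was more often the lowest than the highest of the 4: it was lowest for 58 genes and highest for 36 in the CD4 IEL class, and 101 and 67 in the CD8αβ IEL class.

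**Figure D1:**
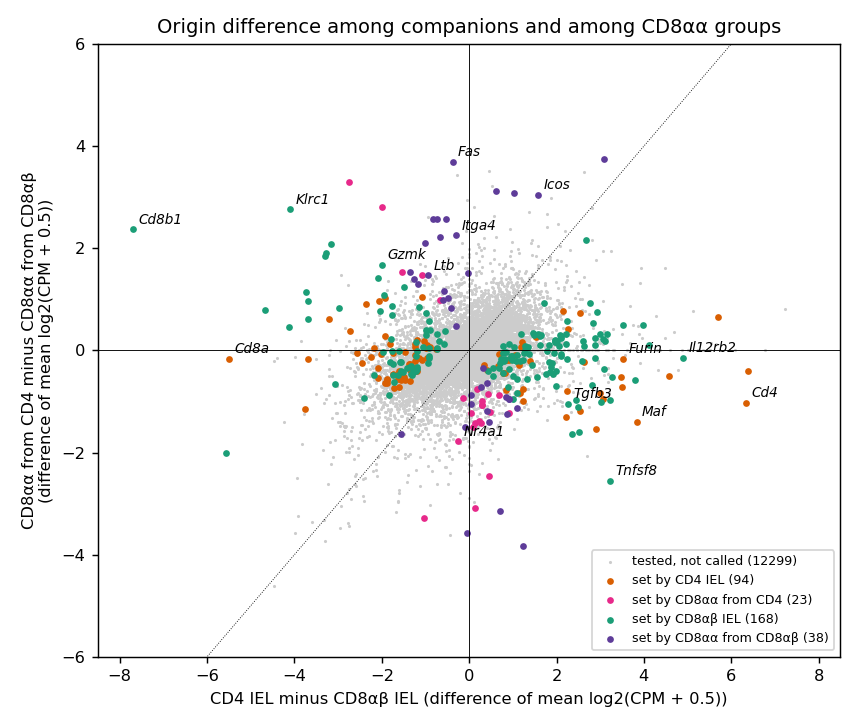
Each point is 1 of 12622 tested genes, placed by the difference of mean log2(CPM + 0.5) between CD4 IEL and CD8αβ IEL (x axis) and between CD8αα from CD4 and CD8αα from CD8αβ (y axis). Grey points did not pass the interaction test, coloured points are the 323 genes that did, by setting group, and the dotted line marks equal differences in both pairs. Most coloured points spread along the x axis, where the 262 companion-set genes lie, and 61 spread along the y axis.

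Of the 323 genes, 311 (96.3%) are annotated as protein coding. None lies on chromosome Y and 6 (1.86%) lie on chromosome X, which holds 389 (3.08%) of the genes tested. Both CD8αα groups held 1 library with Y-linked transcripts and 2 without, so the interaction could hardly call a Y-linked gene. The change to CD8αα passed in the CD4 progeny alone for 65 of the 323 genes and in the CD8αβ progeny alone for 100. It passed in both in the same direction for 118, and in both in opposite directions for 40. Over all genes, 3597 (28.5%) changed with CD4 origin and 3939 (31.2%) with CD8αβ origin. Both changed in the same direction for 2266 (18.0%) and in opposite directions for 41 (0.325%). Both changes enter the interaction, so these counts describe its members.

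**Figure D2:**
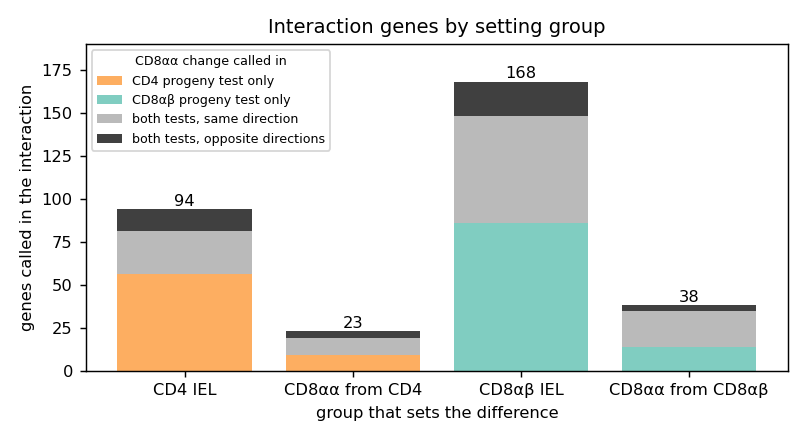
Bars count the 323 interaction genes by the group that set the difference, split by the progeny in which the change to CD8αα passed the test. In the CD4 IEL bar, 56 of 94 genes changed in the CD4 progeny alone. In the CD8αβ IEL bar, 86 of 168 changed in the CD8αβ progeny alone.

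In the class set by CD8αβ IEL, 65 of 168 genes had all 3 CD8αβ IEL libraries above the other 9 libraries, and 97 had all 3 below them. The sort picks the group farthest from the rest, so such separation is largely built in. These counts, here and in the other classes, describe the sort, and their share over all genes tested was not computed. Genes low in CD8αβ IEL included a receptor chain for interleukin-12, a TNF-family ligand and a TGF-β. The libraries for Il12rb2, the signalling chain of the interleukin-12 receptor (chr6:67291318-67376188, mm10), read 859, 872 and 488 CPM for CD4 IEL, 381, 309 and 336 for CD8αα from CD4, 29.8, 26.2 and 16.6 for CD8αβ IEL, and 399, 358 and 371 for CD8αα from CD8αβ. All 3 CD8αβ IEL libraries were far below the rest, and the CD8αα groups overlapped. Il12rb2 therefore fell in the CD4 progeny (-1.11 log2) and rose in the CD8αβ progeny (3.95), with an interaction of -5.06 ± 0.33 (adjusted p = 2.81e-06, edgeR). Tnfsf8, which encodes CD30 ligand, read 85.4, 137 and 73.98 CPM for CD4 IEL, 29.9, 10.2 and 30.6 for CD8αα from CD4, 8.18, 7.82 and 14.3 for CD8αβ IEL, and 115, 120.3 and 147 for CD8αα from CD8αβ. It was high in CD4 IEL and in CD8αα from CD8αβ, and low in the other groups, with an interaction of -5.75 ± 0.54 (adjusted p = 7.08e-05, edgeR). Tgfb3, a transforming growth factor, read 41.5, 67.99 and 46.9 CPM for CD4 IEL, 240.1, 208 and 217 for CD8αα from CD4, 8.595, 12.7 and 9.88 for CD8αβ IEL, and 465, 466 and 439 for CD8αα from CD8αβ. It rose in both progenies, by 2.09 log2 from CD4 IEL and by 5.45 from CD8αβ IEL (interaction -3.36 ± 0.27, adjusted p = 1.58e-05, edgeR).

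Pecam1 (CD31), an adhesion molecule of endothelium and of some lymphocytes, was also lowest in CD8αβ IEL. It read 107, 113 and 70.1 CPM for CD4 IEL, 499, 589.7 and 530.2 for CD8αα from CD4, 27.3, 28.9 and 19.6 for CD8αβ IEL, and 591, 594 and 749 for CD8αα from CD8αβ, and no library of a CD8αα group fell to the level of a companion (interaction -2.19 ± 0.27, adjusted p = 7.78e-04, edgeR). Klrb1c, which encodes NK1.1, read 10.03, 17.9 and 19.5 CPM for CD4 IEL, 206, 164 and 244 for CD8αα from CD4, 9.43, 7.08 and 7.57 for CD8αβ IEL, and 338, 318 and 342 for CD8αα from CD8αβ and had an interaction of -1.67 ± 0.32 (adjusted p = 0.0148). Sept8, a septin of the cytoskeleton, had means of 9.44, 34.2, 0.442 and 67.9 CPM in CD4 IEL, CD8αα from CD4, CD8αβ IEL and CD8αα from CD8αβ. Its interaction was -5.23 ± 0.79 (adjusted p = 0.00293, edgeR). Klrb1b, an inhibitory lectin-like receptor, had 0 reads in CD8αβ IEL. Against the 3 reads over the group that a count of 0 allows, it was at least 67.1-fold higher in CD8αα from CD8αβ and at least 41.9-fold higher in CD4 IEL. Its call was lost without replicate 2 or without replicate 3 of CD8αα from CD4 (highest adjusted p = 0.0599, edgeR). Zbtb7b (ThPOK), the factor that keeps T cells in the helper lineage, read 28.2, 24.9 and 19.6 CPM for CD4 IEL, 18.8, 19.7 and 15.8 for CD8αα from CD4, 3.604, 3.804 and 7.903 for CD8αβ IEL, and 14.6, 14.5 and 13.7 for CD8αα from CD8αβ. It was lowest in CD8αβ IEL, and CD8αα from CD4 overlapped CD4 IEL narrowly. The interaction of Zbtb7b was -1.92 ± 0.42 (adjusted p = 0.0292, edgeR), and the change in the CD4 progeny (-0.42) did not pass. Its call was lost in 9 of the 12 fits that left out 1 library (highest adjusted p = 0.0865). Itga2, an integrin chain of collagen receptors, had means of 17.1, 17.2, 4.14 and 15.9 CPM in the same order. Its interaction of -1.95 ± 0.47 was lost in 10 of these 12 fits (highest adjusted p = 0.127, edgeR).

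Named genes high in CD8αβ IEL included NK-type receptors and genes of cytotoxic cells, and they fell in the CD8αβ progeny. Klrc1, which encodes the inhibitory receptor NKG2A (chr6:129666015-129678973), read 15.8, 9.53 and 13.6 CPM for CD4 IEL, 25.96, 23.4 and 35.6 for CD8αα from CD4, 219, 347 and 153 for CD8αβ IEL, and 2.34, 4.57 and 4.597 for CD8αα from CD8αβ. CD8αβ IEL was highest and CD8αα from CD8αβ lowest, and no libraries of these groups overlapped with those of the others. Klrc1 rose in the CD4 progeny (1.12 log2) and fell in the CD8αβ progeny (-5.97), with an interaction of 7.09 ± 0.48 (adjusted p = 3.54e-06, edgeR). Klrk1, which encodes the activating receptor NKG2D, read 10.5, 18.3 and 4.19 CPM for CD4 IEL, 13.8, 23.7 and 15.4 for CD8αα from CD4, 62.9, 164 and 66.02 for CD8αβ IEL, and 3.74, 2.23 and 5.86 for CD8αα from CD8αβ. Klrc2, which encodes NKG2C, read 2.399, 4.31 and 2.85 CPM for CD4 IEL, 3.93, 4.47 and 3.901 for CD8αα from CD4, 40.8, 15.95 and 61.7 for CD8αβ IEL, and 0.561, 0.319 and 1.61 for CD8αα from CD8αβ. Both followed the order of Klrc1 at the ends, with interactions of 5.32 ± 0.73 for Klrk1 (adjusted p = 0.00152) and 5.94 ± 0.79 for Klrc2 (adjusted p = 0.00119, edgeR). In CD4 progeny neither Klrk1 (0.69) nor Klrc2 (0.37) passed.

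Gzmk (granzyme K, a serine protease of cytotoxic granules) read 144, 112 and 98.995 CPM for CD4 IEL, 51.7, 68.1 and 73.3 for CD8αα from CD4, 414, 557 and 449 for CD8αβ IEL, and 19.4, 14.9 and 25.9 for CD8αα from CD8αβ. No libraries of the 4 groups overlapped. It changed by -0.88 log2 in the CD4 progeny and by -4.56 in the other progeny (interaction 3.68 ± 0.31, adjusted p = 2.62e-05, edgeR). Crtam, an adhesion receptor of activated cytotoxic T cells, had means of 19.2, 7.81, 78.5 and 2.64 CPM in CD4 IEL, CD8αα from CD4, CD8αβ IEL and CD8αα from CD8αβ (interaction 3.61 ± 0.58, adjusted p = 0.00463). Ly6c2, a surface marker of memory CD8 T cells, had means of 5.89, 6.08, 276 and 26.3 CPM in that order. Its interaction of 3.39 ± 0.64 (adjusted p = 0.0129, edgeR) was lost without replicate 3 of CD8αα from CD4 (adjusted p = 0.0538). Ly6 and Klr genes have near-identical relatives, and how the authors counted reads with several matches is not given in the sources used here, so the values of single members are uncertain.

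Apart from Serp2, the other named genes of this class were called less firmly. Serp2, a gene of stress-associated protein of the endoplasmic reticulum, had an interaction of 6.86 ± 0.94 (adjusted p = 0.00149, edgeR). Its levels were low, with means of 0.217, 2.56, 9.29 and 0.879 CPM in CD4 IEL, CD8αα from CD4, CD8αβ IEL and CD8αα from CD8αβ. The first of these rests on 5 reads. The inhibitory receptor gene Havcr2 (TIM-3) had an interaction of 2.50 ± 0.50, and its call was lost without replicate 2 or 3 of CD8αα from CD4 or replicate 1 of CD8αα from CD8αβ (highest adjusted p = 0.06295). Cd3d, a chain of the T cell receptor complex, read 248, 217 and 234 CPM for CD4 IEL, 11.6, 14.2 and 28.2 for CD8αα from CD4, 727, 749.5 and 611 for CD8αβ IEL, and 17.9, 20.4 and 21.1 for CD8αα from CD8αβ. It fell in both progenies, further from CD8αβ IEL, and its interaction of 1.44 ± 0.34 was lost in 10 of 12 leave-one-out fits (highest adjusted p = 0.108). Tnfsf4 (OX40 ligand) had means of 1.17, 0.711, 16.3 and 0.0312 CPM, the last from 1 read, and was lost in 8 of 12 such fits (interaction 7.64 ± 1.78, highest adjusted p = 0.164). The cell cycle genes of this class are described with their list below.

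**Figure D3:**
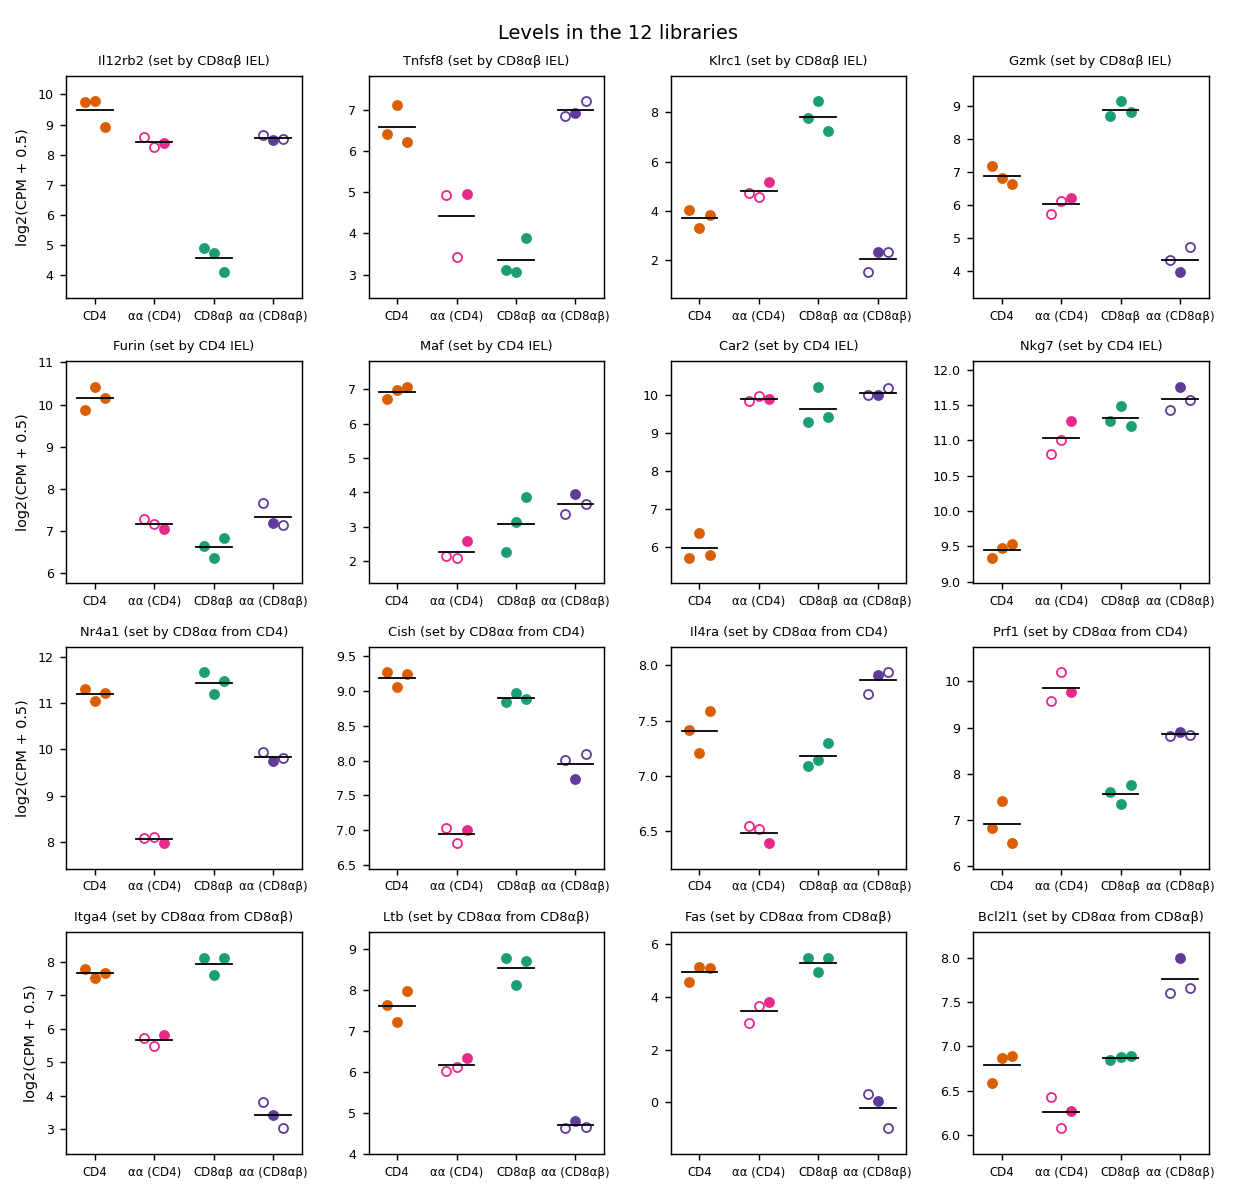
Each panel shows log2(CPM + 0.5) of 1 gene in the 12 libraries, with a bar at the mean of each group of 3. Open circles are the 4 CD8αα libraries with at most 1.03 CPM of Y-linked transcripts, and filled circles the other 8 libraries. The rows hold genes set by CD8αβ IEL, CD4 IEL, CD8αα from CD4 and CD8αα from CD8αβ, and in each panel except that of Tnfsf8 the libraries of the group that set the difference do not overlap the rest.

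In the class set by CD4 IEL, 32 of 94 genes had all 3 CD4 IEL libraries above the other 9, and 56 had all 3 below. High in CD4 IEL were a transcription factor of helper cells, a protein convertase and receptors for type 3 cytokines. Furin, the convertase that activates TGF-β and other precursors (chr7:80388585-80405436), read 935, 1369 and 1145 CPM for CD4 IEL, 156, 145 and 131 for CD8αα from CD4, 99.8, 82.2 and 114 for CD8αβ IEL, and 201, 147 and 141 for CD8αα from CD8αβ. CD4 IEL was far above every other library. Furin fell in the CD4 progeny (-2.997 log2) and rose in the CD8αβ progeny (0.72), with an interaction of -3.72 ± 0.26 (adjusted p = 3.91e-06, edgeR). Maf, a transcription factor of helper T cells (chr8:115682942-115707794), read 104, 126 and 134 CPM for CD4 IEL, 3.93, 3.78 and 5.46 for CD8αα from CD4, 4.298, 8.24 and 14.2 for CD8αβ IEL, and 9.91, 15.1 and 12.2 for CD8αα from CD8αβ. It fell in the CD4 progeny (-4.79), its change in the CD8αβ progeny (0.49) did not pass, and the interaction was -5.28 ± 0.48 (adjusted p = 5.23e-05, edgeR). Podnl1, a leucine-rich repeat protein gene, read 420.5, 412 and 492 CPM for CD4 IEL, 5.46, 15.4 and 14.8 for CD8αα from CD4, 8.32, 7.18 and 8.56 for CD8αβ IEL, and 10.5, 3.83 and 7.35 for CD8αα from CD8αβ. Again only CD4 IEL was high, and the 3 other groups overlapped (interaction -5.06 ± 0.50, adjusted p = 1.11e-04, edgeR).

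Receptor chains for interleukin-17C, interleukin-23, interleukin-12 and interleukin-1 were among the named genes of this class. The 3 CD4 IEL libraries held Il17re, a chain of the interleukin-17C receptor, at 29.1, 37.6 and 63.1 CPM. Il17re had no reads, 0 over the group, in CD8αα from CD4 or CD8αβ IEL, and 6 reads in CD8αα from CD8αβ. It was at least 290-fold lower in CD8αα from CD4 than in CD4 IEL. Il23r, the interleukin-23 receptor, read 14.2, 19.2 and 10.2 CPM in CD4 IEL. With 0 reads, CD8αα from CD4 was at least 103-fold lower for Il23r. The 6 reads of Il17re all came from replicate 2 of CD8αα from CD8αβ, and both calls were lost without that library (adjusted p = 0.9998 for Il17re and 0.0623 for Il23r, edgeR). Il1r2, a decoy receptor for interleukin-1, had means of 34.8, 8.86, 3.72 and 15.8 CPM in CD4 IEL, CD8αα from CD4, CD8αβ IEL and CD8αα from CD8αβ. It fell in the CD4 progeny (-1.95) and rose in the CD8αβ progeny (2.09; interaction -4.05 ± 0.60, adjusted p = 0.00246, edgeR). Il12rb1, the shared chain of the interleukin-12 and interleukin-23 receptors, had means of 489, 285, 219 and 269 CPM. Its interaction of -1.07 ± 0.26 was lost in 9 of 12 leave-one-out fits (highest adjusted p = 0.125, edgeR).

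Of the other genes high in CD4 IEL, Hk2, a hexokinase of glycolysis, had means of 44.3, 3.77, 18.95 and 8.07 CPM (interaction -2.32 ± 0.42, adjusted p = 0.0108, edgeR). Zfp36 (tristetraprolin), which speeds the decay of cytokine mRNAs, read 789, 783 and 799 CPM for CD4 IEL, 113, 137 and 159 for CD8αα from CD4, 468, 389 and 501 for CD8αβ IEL, and 166, 184 and 206 for CD8αα from CD8αβ. It fell in both progenies and further from CD4 IEL, with an interaction of -1.25 ± 0.21 (adjusted p = 0.00554). Rnase4, a secreted ribonuclease, had an interaction of -4.20 ± 0.71 (adjusted p = 0.00671). The ion channel-like gene Tmem176b (-4.02 ± 0.86) and the protease gene Hpn (-11.13 ± 2.41) were lost in 4 and 11 of 12 leave-one-out fits (highest adjusted p = 0.0765 and 0.108, edgeR). Hpn had 43 reads over the 3 CD4 IEL libraries and 1 read in CD8αα from CD4.

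Low in CD4 IEL alone were genes that both CD8αα groups shared with CD8αβ IEL. Car2, a carbonic anhydrase (chr3:14886426-14900769), read 52.01, 82.9 and 54.96 CPM for CD4 IEL, 918, 1008 and 959.8 for CD8αα from CD4, 634, 1197 and 684 for CD8αβ IEL, and 1039, 1023 and 1168 for CD8αα from CD8αβ. CD8αβ IEL overlapped both CD8αα groups, and all 3 CD4 IEL libraries were far below. Car2 rose by 3.93 log2 in the CD4 progeny, did not pass in the CD8αβ progeny (0.36), and had an interaction of 3.57 ± 0.32 (adjusted p = 5.23e-05, edgeR). Nkg7, a protein of cytotoxic granules, read 647, 709 and 741 CPM for CD4 IEL, 1791, 2064 and 2468 for CD8αα from CD4, 2483, 2872 and 2356 for CD8αβ IEL, and 2751, 3463 and 3042 for CD8αα from CD8αβ. It rose in the CD4 progeny (1.59) and its change in the CD8αβ progeny (0.26) did not pass (interaction 1.33 ± 0.20, adjusted p = 0.00246, edgeR). Ccl3, a chemokine, read 34.5, 32.5 and 21.7 CPM for CD4 IEL, 121, 124 and 152 for CD8αα from CD4, 132, 249 and 127 for CD8αβ IEL, and 164, 139 and 167 for CD8αα from CD8αβ, and Ccl5, another chemokine of effector T cells, read 1124, 1065 and 1013 CPM for CD4 IEL, 7985, 9368 and 10462 for CD8αα from CD4, 3857, 6332 and 2679 for CD8αβ IEL, and 5348, 11256 and 7341 for CD8αα from CD8αβ. CD4 IEL was the lowest group for both, and the other 3 groups overlapped for Ccl3 (interactions 2.27 ± 0.35 for Ccl3, adjusted p = 0.00381, and 2.22 ± 0.40 for Ccl5, adjusted p = 0.0106, edgeR).

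Itgax (CD11c), an integrin found on dendritic cells and on some IEL, read 67.3, 89 and 49.6 CPM for CD4 IEL, 888, 939 and 707 for CD8αα from CD4, 193, 150.1 and 98.8 for CD8αβ IEL, and 476, 379 and 378 for CD8αα from CD8αβ. It rose in both progenies, by 3.62 and 1.48 log2, and the interaction was 2.14 ± 0.34 (adjusted p = 0.00441, edgeR). Serpinb6b, an inhibitor of serine proteases, had means of 144, 303, 279 and 291 CPM in CD4 IEL, CD8αα from CD4, CD8αβ IEL and CD8αα from CD8αβ. Its interaction of 1.02 ± 0.23 was lost in 9 of 12 leave-one-out fits (highest adjusted p = 0.1003, edgeR).

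CD8αα from CD4 set 23 genes, and was the lowest group for 18 and the highest for 5. In 16 genes all 3 of its libraries were below the other 9, and in 3 all were above. Among the low ones were Nr4a1, Egr2, Jun and Cd69, immediate early genes that receptor signals induce quickly. Nr4a1 (Nur77), an orphan nuclear receptor used as a reporter of receptor signalling (chr15:101266846-101274792), read 2528, 2100.1 and 2368 CPM for CD4 IEL, 272, 273 and 250.5 for CD8αα from CD4, 3249, 2330.3 and 2840.02 for CD8αβ IEL, and 986, 853 and 902 for CD8αα from CD8αβ. CD8αα from CD4 was the lowest group and CD8αα from CD8αβ the next, with no overlap, while the companions overlapped. Nr4a1 fell by 3.14 log2 in the CD4 progeny and by 1.62 in the other progeny (interaction -1.52 ± 0.18, adjusted p = 6.31e-04, edgeR). Cish, an inhibitor of cytokine receptor signals that STAT5 induces (chr9:107296026-107302784), read 616, 530.5 and 604 CPM for CD4 IEL, 131, 112 and 128 for CD8αα from CD4, 456, 502 and 474 for CD8αβ IEL, and 256, 214 and 272 for CD8αα from CD8αβ. Its order of groups at the low end was the same, with changes of -2.24 and -0.95 (interaction -1.29 ± 0.18, adjusted p = 0.00152, edgeR).

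The promoters of Nr4a1 and Cish are shown because both genes are well-known targets of receptor and cytokine signals. Each window runs from 250 bases before to 30 bases after the RefSeq start nearest to the deposited gene start (GRCm38.p6, plus strand). Capitals mark TGACG on either strand in Nr4a1 (chr15:101266596-101266875), the short form of the site that CREB and ATF factors bind, and TTCNNNGAA in Cish (chr9:107296409-107296688), the spacing that STAT5 binds.
Nr4a1: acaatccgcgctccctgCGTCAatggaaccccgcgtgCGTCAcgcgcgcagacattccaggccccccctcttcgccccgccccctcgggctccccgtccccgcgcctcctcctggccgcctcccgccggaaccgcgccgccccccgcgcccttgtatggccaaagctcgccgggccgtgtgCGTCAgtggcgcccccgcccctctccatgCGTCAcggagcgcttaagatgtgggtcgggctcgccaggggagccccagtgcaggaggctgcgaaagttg
Cish: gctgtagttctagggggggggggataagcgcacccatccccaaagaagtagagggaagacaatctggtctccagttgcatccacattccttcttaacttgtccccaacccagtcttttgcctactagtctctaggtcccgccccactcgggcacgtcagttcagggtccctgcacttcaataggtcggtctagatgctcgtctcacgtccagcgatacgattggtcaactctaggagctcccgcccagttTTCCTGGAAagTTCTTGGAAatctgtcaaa
The Nr4a1 window holds 4 matches and the Cish window 2. TGACG occurred in 19.9% of 32851 RefSeq windows of the same length and in 4 of the 19 windows matched to the 23 genes of this class. TTCNNNGAA occurred in 7.83% of all windows and in 2 of these 19. The motifs do not overlap each other in these letters and were chosen after the sequences had been seen. A match describes these letters and shows neither binding nor a cause.

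Il4ra, the interleukin-4 receptor chain, went in opposite directions in the progenies. It read 169.9, 147 and 192 CPM for CD4 IEL, 92.9, 91.1 and 83.3 for CD8αα from CD4, 136, 141 and 156 for CD8αβ IEL, and 213, 240.4 and 245 for CD8αα from CD8αβ, falling by 0.93 log2 in the CD4 progeny and rising by 0.69 in the CD8αβ progeny (interaction -1.62 ± 0.19, adjusted p = 4.89e-04, edgeR). CD8αα from CD4 was the lowest group and CD8αα from CD8αβ the highest, with no overlap with other groups. Serpina3f, a serine protease inhibitor gene of a family of close copies, had means of 35.1, 7.71, 25.3 and 46.1 CPM in CD4 IEL, CD8αα from CD4, CD8αβ IEL and CD8αα from CD8αβ (interaction -3.06 ± 0.39, adjusted p = 8.89e-04). Kcnk5, a potassium channel gene, read 252, 180.2 and 234 CPM for CD4 IEL, 38.8, 58.6 and 70.7 for CD8αα from CD4, 219.7, 146 and 191 for CD8αβ IEL, and 122, 147 and 177 for CD8αα from CD8αβ. Its fall passed in the CD4 progeny alone (-1.99 against -0.32; interaction -1.67 ± 0.32, adjusted p = 0.0156, edgeR). Zfp36l1, a relative of Zfp36 with the same role in mRNA decay, also fell in the CD4 progeny alone (-1.32 against -0.04; interaction -1.28 ± 0.20, adjusted p = 0.00443).

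The other immediate early genes of this class were called less firmly. Egr2, a zinc finger factor downstream of the T cell receptor, read 175, 121 and 96 CPM for CD4 IEL, 17.1, 11.5 and 20.9 for CD8αα from CD4, 112, 86.5 and 76.2 for CD8αβ IEL, and 39.5, 34.5 and 39.1 for CD8αα from CD8αβ. It fell in both progenies and was lowest in CD8αα from CD4 (interaction -1.71 ± 0.35, adjusted p = 0.0219, edgeR). Jun, a subunit of AP-1, had means of 1686, 781, 1514 and 2143 CPM, and Cd69, the early activation and residency marker, 1933, 754, 1714 and 1271 CPM in the same group order. Tnf, the inflammatory cytokine, read 187, 128 and 196 CPM for CD4 IEL, 5.98, 4.12 and 4.06 for CD8αα from CD4, 149.7, 119 and 144 for CD8αβ IEL, and 10.3, 9.35 and 11.1 for CD8αα from CD8αβ, so that both CD8αα groups were far below the companions and the interaction was -1.44. Pdk1, a kinase that holds back pyruvate oxidation, had an interaction of -1.58 ± 0.32, and Csf2 (GM-CSF) one of -5.20 ± 1.17 with group means of at most 5.08 CPM. Leaving out 1 library lost the call in 4 of 12 fits for Egr2, 6 for Jun, 8 for Cd69, 5 for Tnf, 5 for Pdk1 and 9 for Csf2. The highest adjusted p of these fits was 0.0595 for Egr2, 0.0887 for Jun, 0.09795 for Cd69, 0.0689 for Tnf, 0.0629 for Pdk1 and 0.1003 for Csf2 (edgeR).

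High in CD8αα from CD4 were perforin, an MHC class II chain and an NK receptor. The class of the MHC class II chain, H2-Eb1, was a near tie. Prf1, the pore-forming protein of cytotoxic granules (chr10:61297836-61304263), read 113, 170.04 and 90.2 CPM for CD4 IEL, 765, 1173 and 873 for CD8αα from CD4, 193, 163 and 216 for CD8αβ IEL, and 449, 481 and 459 for CD8αα from CD8αβ. It rose by 2.91 log2 in the CD4 progeny and by 1.28 in the other progeny (interaction 1.63 ± 0.30, adjusted p = 0.0117, edgeR). All 3 libraries of CD8αα from CD4 were above all others. H2-Eb1, a beta chain of MHC class II, read 26.9, 23.4 and 14.2 CPM for CD4 IEL, 55.7, 76.9 and 108 for CD8αα from CD4, 42.6, 103 and 51.2 for CD8αβ IEL, and 24.5, 38.6 and 19.7 for CD8αα from CD8αβ. Replicate 2 of CD8αβ IEL reached the range of CD8αα from CD4, and the other libraries were lower (interaction 3.15 ± 0.53, adjusted p = 0.00599, edgeR). Klre1, a lectin-like NK receptor, read 4.03, 8.09 and 1.498 CPM for CD4 IEL, 54.6, 31.5 and 67.3 for CD8αα from CD4, 4.99, 70.4 and 12.2 for CD8αβ IEL, and 4.3, 5.74 and 11.03 for CD8αα from CD8αβ. The same CD8αβ IEL library was again the high one of its group, and the interaction of 5.55 ± 1.14 was lost in 5 of 12 leave-one-out fits (highest adjusted p = 0.0629, edgeR).

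CD8αα from CD8αβ set 38 genes, and was lowest for 21 and highest for 17. For 19 genes all 3 of its libraries were below the other 9, and for 17 they were above. Low there were an integrin chain, a death receptor, a costimulator and a TNF-family ligand. Itga4, the α4 chain of gut-homing integrins (chr2:79255426-79333123), read 218, 183 and 202 CPM for CD4 IEL, 51.9, 44.2 and 55.6 for CD8αα from CD4, 279, 194 and 275 for CD8αβ IEL, and 13.4, 10.2 and 7.58 for CD8αα from CD8αβ. It fell by 1.99 log2 from CD4 IEL, fell by 4.58 from CD8αβ IEL, and the CD8αα groups did not overlap (interaction 2.58 ± 0.29, adjusted p = 2.98e-04, edgeR). Ltb (lymphotoxin β) read 198, 149 and 251 CPM for CD4 IEL, 64.9, 68.9 and 80.2 for CD8αα from CD4, 445, 279.98 and 423 for CD8αβ IEL, and 24.02, 27.4 and 24.8 for CD8αα from CD8αβ and followed the same order at the low end (interaction 2.43 ± 0.29, adjusted p = 5.89e-04, edgeR). Fas, the death receptor (chr19:34290659-34327770), read 23.01, 34.6 and 33.997 CPM for CD4 IEL, 7.51, 12.03 and 13.4 for CD8αα from CD4, 44.8, 30.5 and 43.96 for CD8αβ IEL, and 0.748, 0.532 and 0 for CD8αα from CD8αβ. It was at most 0.748 CPM in any library of CD8αα from CD8αβ, and fell by 1.47 log2 in the CD4 progeny (interaction 4.96 ± 0.63, adjusted p = 9.04e-04, edgeR).

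Icos, the inducible costimulator, read 575, 514 and 585 CPM for CD4 IEL, 6.49, 10.3 and 11.5 for CD8αα from CD4, 213, 131 and 229.8 for CD8αβ IEL, and 0.841, 0.744 and 0.4597 for CD8αα from CD8αβ. It fell steeply in both progenies, and CD8αα from CD8αβ was the lowest group with no overlap. The interaction of Icos was 2.20 ± 0.42 (adjusted p = 0.0134, edgeR), and the call was lost without replicate 3 of CD8αα from CD8αβ (adjusted p = 0.0533). Ptpn13, a protein tyrosine phosphatase that binds Fas in human cells, had means of 58.2, 17.3, 38.5 and 1.43 CPM in CD4 IEL, CD8αα from CD4, CD8αβ IEL and CD8αα from CD8αβ (interaction 2.98 ± 0.47, adjusted p = 0.00441). Gmfg, a regulator of the actin cytoskeleton, had means of 54.9, 14.02, 124 and 5.401 CPM (interaction 2.57 ± 0.38, adjusted p = 0.00246, edgeR). Sh2d1a (SAP), the adaptor of SLAM receptors, had means of 33.7, 2.55, 81.1 and 0.817 CPM and lies on chromosome X. Its interaction of 2.80 ± 0.66 was lost in 10 of 12 leave-one-out fits (highest adjusted p = 0.117, edgeR).

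High in CD8αα from CD8αβ was Bcl2l1, which encodes the survival protein Bcl-xL and read 95.8, 116 and 118 CPM for CD4 IEL, 85.4, 66.7 and 76.3 for CD8αα from CD4, 114, 117 and 119 for CD8αβ IEL, and 194, 257 and 202 for CD8αα from CD8αβ. It fell in the CD4 progeny (-0.53 log2) and rose in the CD8αβ progeny (0.899), and its difference between the companions did not pass (-0.08; interaction -1.43 ± 0.21, adjusted p = 0.00264, edgeR). Tex2, a lipid transfer protein gene of the endoplasmic reticulum, read 110.02, 149.9 and 159 CPM for CD4 IEL, 122, 109 and 119 for CD8αα from CD4, 58.2, 55.3 and 83.97 for CD8αβ IEL, and 294, 213 and 266 for CD8αα from CD8αβ (interaction -2.23 ± 0.27, adjusted p = 6.31e-04). Tmem154, a transmembrane protein gene, read 275, 204 and 205 CPM for CD4 IEL, 168, 97.7 and 149 for CD8αα from CD4, 142, 104 and 126 for CD8αβ IEL, and 336, 315 and 304 for CD8αα from CD8αβ (interaction -2.09 ± 0.28, adjusted p = 0.00119). For both, all libraries of CD8αα from CD8αβ were above the rest. Grb10, an imprinted adaptor that restrains insulin-type signals, rose in both progenies from a few reads. It read 36.2, 32.999 and 44.01 CPM in CD8αα from CD4 and 75.2, 70.4 and 72.7 in CD8αα from CD8αβ, with at most 1.05 CPM in any companion library. Its interaction of -3.54 ± 0.77 was lost in 7 of 12 leave-one-out fits, and that of the collagen gene Col27a1 (-5.02 ± 1.18) in 9 (highest adjusted p = 0.0777 and 0.319, edgeR). Without replicate 2 of CD4 IEL the value of Col27a1 was -2.13. Plat, the tissue plasminogen activator, read 4.58, 8.61 and 7.12 CPM in CD8αα from CD8αβ and at most 2.61 CPM elsewhere. Col1a2, a fibrillar collagen chain of stromal cells, read 10.9, 13.9 and 8.85 CPM there and had 0 reads in CD8αβ IEL, which makes it at least 85.6-fold higher in CD8αα from CD8αβ.

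Opposite changes in the progenies passed in both tests for 41 genes, and 40 of these were called in the interaction. They were shared among all classes: 20 were set by CD8αβ IEL, 13 by CD4 IEL, 4 by CD8αα from CD4 and 3 by CD8αα from CD8αβ. Of the 40, 24 fell in the CD4 progeny and rose in the CD8αβ progeny, and 16 did the reverse. Among those that fell in the CD4 progeny and rose in the other were Il12rb2, Tnfsf8, Furin, Il1r2, Il4ra and Bcl2l1. Klrc1, H2-Eb1, H2-Aa and Serp2 rose in the CD4 progeny and fell in the CD8αβ progeny. For Il12rb2 the CD8αα groups lay close together, at 342 and 376 CPM, and the companions far apart, at 739 and 24.2. For Il4ra it was the companions that lay close, at 169.7 and 144 CPM, and the CD8αα groups that differed, at 89.1 and 233.

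**Figure D4:**
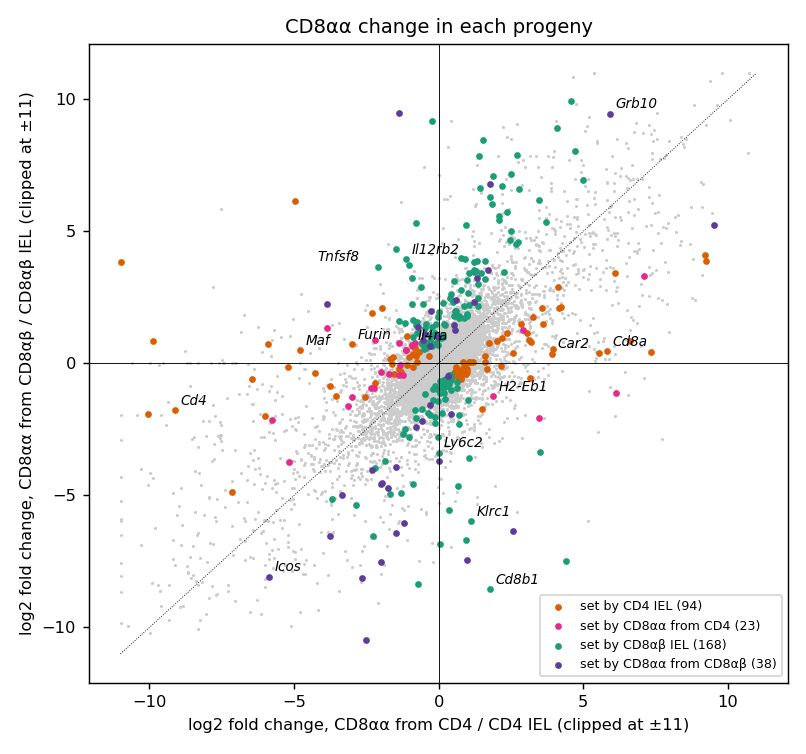
Each point is a tested gene, placed by its log2 fold change from companion to CD8αα in the CD4 progeny (x axis) and in the CD8αβ progeny (y axis), with values beyond 11 drawn at 11 and the dotted line marking equal changes. Coloured points are the 323 interaction genes by setting group. Il12rb2 and Tnfsf8 lie in the upper left quadrant, and Klrc1 and H2-Eb1 in the lower right.

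Of the 323 genes, 65 (20.1%) were on 1 or more of 31 gene lists, against 477 (3.78%) of the genes tested. The lists were chosen with earlier results of these data known and hold the sorting markers. These shares and the counts per list are therefore descriptions and no test. Over all genes tested 2.56% were called. Of the lineage lists, that of the CD8 lineage had 7 of 12 tested members called, 6 higher and 1 lower, with a median interaction of 2.32 log2, against a median of -0.0033 over all genes tested. Its members Cd8a and Cd8b1 were fixed by sorting, and Nkg7, Gzmk and Crtam were among the others. The CD4 helper list had 5 of 18 called, 1 higher (Icos) and 4 lower (Cd4, Maf, Tnfsf8 and Zbtb7b), with a median of -1.73 (-1.19 with genes of at most 3 reads in a group put at their bound). The list of type 3 helper cytokines and their receptors had 6 of 18 called, 1 higher and 5 lower, with a median of -3.41 (-3.64 likewise). The list of type 1 helper genes had 4 of 15 called, and its median was -0.0029. Tbx21, which encodes T-bet, had an interaction of 0.01 ± 0.18, and Ifng of -0.63 ± 0.39 (adjusted p = 0.989 and 0.418, edgeR). None of 14 regulatory T cell genes was called.

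Of 23 NK receptor genes, 10 were called, 7 higher and 3 lower, and 7 of these 10 were set by CD8αβ IEL. The median of the list was 1.65, and 2.74 with genes of at most 3 reads in a group put at their bound. In both progenies most of the list rose: 14 rose and 3 fell with CD4 origin, and 12 rose and 7 fell with CD8αβ origin, against 1898 and 2030 of all 12622 genes tested that rose. A cluster of Klr genes lies in a stretch of chromosome 6 from Klrb1c to Klrc1 (chr6:128778485-129678973), where 9 of 16 tested genes were called (56.2%, against 2.56% of all genes tested). Of these 9, 8 are Klr genes, 5 higher and 3 lower, and the other is Cd69, which lies between them. This stretch was chosen after its values were seen. The natural killer and innate lymphoid list had 4 of 18 called (22.2%), Klre1 higher and Il23r, Itga2 and Klrb1c lower. Against the same shares of all genes tested, its members moved both ways: 7 rose and 8 fell with CD4 origin, and 8 rose and 5 fell with CD8αβ origin. Its summed level was 2.97e+03 to 3.15e+03 CPM for CD4 IEL, 9.01e+03 to 1.13e+04 for CD8αα from CD4, 3.30e+03 to 3.80e+03 for CD8αβ IEL and 1.24e+04 to 1.56e+04 for CD8αα from CD8αβ. The part of these markers in the result was not tested. The cytotoxic granule list had 4 of 16 called, all higher (Gzmk, Nkg7, Prf1 and Serpinb6b), with a median of 0.50. Gzmb (granzyme B) rose alike in the progenies, by 2.501 and 2.51 log2, with an interaction of -0.01 ± 0.44 (adjusted p = 1, edgeR).

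Signalling lists were divided. Of 28 cytokine receptors, 7 were called and all 7 were lower, 5 of them set by CD4 IEL, with a median of -0.75. Of 21 genes of the TNF and costimulatory families, 7 were called, 5 higher and 2 lower. Of 23 cytokines and chemokines, 5 were called, 2 higher (Ccl3 and Ccl5) and 3 lower (Tgfb3, Tnf and Csf2). Of 29 immediate early and stress genes, 7 were called and all were lower, 4 set by CD8αα from CD4 and 3 by CD4 IEL, with a median of -0.73. In that list 21 of 29 genes fell in the CD4 progeny and 16 in the other progeny, against 13.5% and 15.1% of all genes tested. Of 39 T cell receptor and signalling genes, 1 was called (Cd3d), and of 17 inhibitory receptors also 1 (Havcr2), against 2.56% of all genes tested. Of 32 chemokine receptor and homing genes, 2 were called, Itga4 and Itgax. The natural IEL list had 1 of 24 called (Cd69) and the naive list 1 of 15 (Pecam1), shares of 4.17% and 6.67%. With 1 gene each, these 4 counts are near the background and show nothing about the lists.

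The cell cycle list fell in both progenies, 36 of 41 genes with CD4 origin and 40 of 41 with CD8αβ origin. Of all genes tested, 13.5% and 15.1% fell. Its summed level was 3.28e+03 to 3.94e+03 CPM for CD4 IEL, 5.45e+03 to 7.06e+03 for CD8αβ IEL, 1.37e+03 to 1.51e+03 for CD8αα from CD4 and 1.65e+03 to 1.83e+03 for CD8αα from CD8αβ. CD8αβ IEL was thus the highest group and the CD8αα groups the lowest, with no overlap. In the interaction 4 were called (9.76%, against 2.56% of all genes tested), all higher and all set by CD8αβ IEL. The list median was 0.45. Called were Cdk1, a cyclin-dependent kinase (1.31), and Tk1, thymidine kinase (1.75). The others were Ube2c, a ubiquitin-conjugating enzyme that works with the anaphase-promoting complex (1.84), and Cenpa, the centromeric histone (1.18). These calls were weak, lost in 9, 7, 10 and 10 of 12 leave-one-out fits (highest adjusted p = 0.133, 0.119, 0.132 and 0.117, edgeR).

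The MHC class II list had 3 of 9 called (33.3%, against 2.56% of all genes tested). These were H2-Eb1, H2-Aa and H2-Ab1, all higher, and the list median was 2.66. In this list 4 genes rose in the CD4 progeny, and 2 rose and 6 fell in the CD8αβ progeny. H2-Aa read 32.9, 18.5 and 12.9 CPM for CD4 IEL, 33.6, 61.8 and 89.9 for CD8αα from CD4, 49.6, 180.03 and 50.1 for CD8αβ IEL, and 25.3, 38.1 and 22.3 for CD8αα from CD8αβ, and H2-Ab1 read 50.4, 55.98 and 29.1 CPM for CD4 IEL, 46.6, 76.7 and 98.5 for CD8αα from CD4, 118, 278 and 100.3 for CD8αβ IEL, and 34.5, 71.1 and 23.3 for CD8αα from CD8αβ. Replicate 2 of CD8αβ IEL was the highest library for both. The call of H2-Aa was lost in 6 and that of H2-Ab1 in 8 of 12 leave-one-out fits (highest adjusted p = 0.0997 and 0.125, edgeR). MHC class II genes are borne mainly by antigen-presenting cells and gut epithelium. The summed level of the myeloid list was 61.6 to 140 CPM for CD4 IEL, 326 to 348 for CD8αα from CD4, 160 to 257 for CD8αβ IEL and 251 to 318 for CD8αα from CD8αβ. For the epithelial list it was 110 to 260, 590 to 748, 335 to 1.07e+03 and 630 to 1.25e+03 CPM in the same order. None of the 14 tested myeloid, 20 epithelial or 5 B cell genes was called. Their part in the result was not tested.

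No gene was called among 36 interferon-stimulated, 24 sterol and fatty acid synthesis or 14 heat shock genes. Of 18 glycolysis genes, 2 were called (11.1%, Hk2 and Pdk1, both lower), and of 18 regulators of innate and resident lymphocytes 1 (5.56%, Maf). Of 6 stroma and endothelium genes, 2 were called (33.3%, Pecam1 and Col1a2), and the other marker lists of mast, γδ T and erythroid cells had none. Over all genes tested 2.56% were called. Of the 3 called genes nearest to the threshold, Gem had an interaction of 1.14, Dbf4 of 1.26 and Atp9a of -1.89, and the nearest genes that missed it were Mt2 (6.26), Slc4a7 (1.24) and 0610010K14Rik (1.04).

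The 323 genes were followed in the CD8αα libraries split by Y-linked transcripts. These libraries also chose the genes, so their direction there is a description. All 323 kept their direction with the 2 CD8αα libraries that held them, 1 per group, and 11 of them were called. With the 4 that did not, 2 per group, all 323 also kept their direction and 100 were called. In these fits 13 genes in all were called from 8 libraries and 109 from 10. Of the 75 called genes named here other than Gem, Dbf4 and Atp9a, 11 and 41 passed in the 2 subsets, and 45 passed whichever single library was left out. Leaving out 1 library gave 147 to 368 calls. The count fell by over 1.5 times without replicate 2 or 3 of CD8αα from CD4 (161 and 147), replicate 1 or 3 of CD8αα from CD8αβ (156 and 175), and replicate 2 of CD4 IEL (200). The share set by a companion group was 69.2% to 87% over all settings tried. DESeq2's Wald test called 817 genes, 320 of the 323 among them. A test against a minimum of 2-fold (glmTreat in edgeR) called 65.

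**Figure D5:**
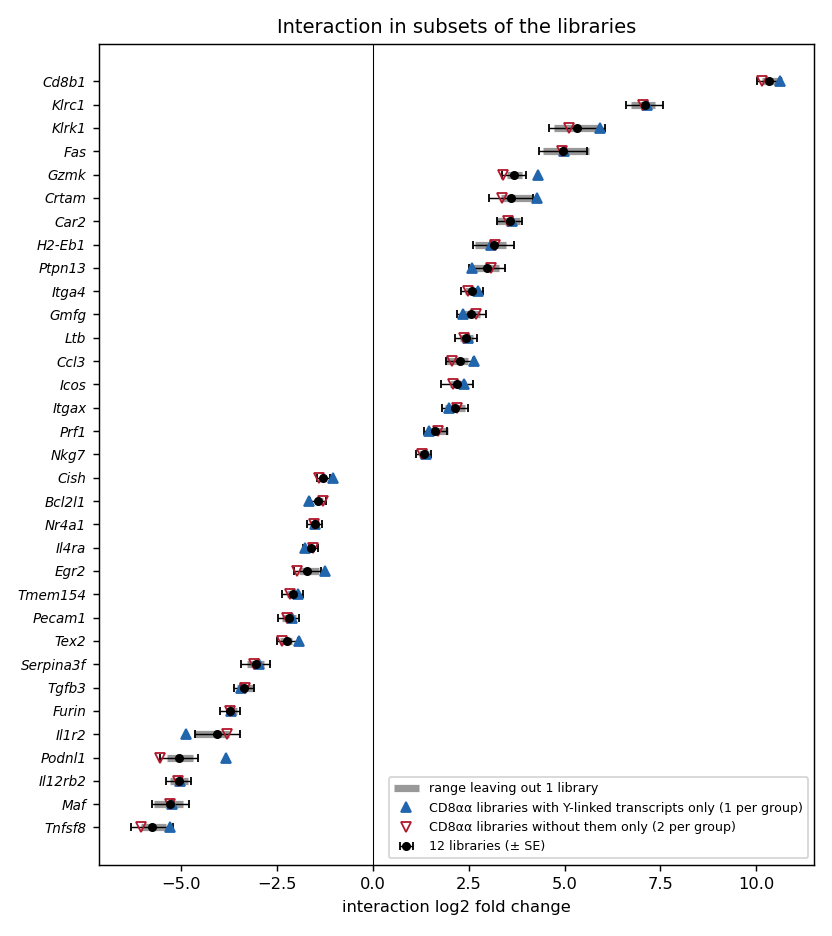
The x axis gives the interaction log2 fold change of named genes. Black points are the values from 12 libraries with their standard error, grey bars the range when 1 library was left out, and triangles the values with the CD8αα libraries that held Y-linked transcripts (filled, 1 per group) or lacked them (open, 2 per group). For each gene shown, every value lies on the same side of 0.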

How the data were processed

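Deposited whole-number read counts per gene, not normalised by the authors, were used for 12 libraries. Reads had been aligned with HISAT2 2.1.0 to mm10, per the submitters' processing notes. Which program counted reads, and how it used strand and multiple matches, is not given in the sources used here. The table had 25965 rows and 25899 symbols. Of rows that shared a symbol, the one with the highest total was kept, which left out 66 rows with 0.0202% of the reads. Symbols that had been turned into dates (25) were restored from Ensembl identifiers. Identifiers of 25035 rows were found in GENCODE M21 (mm10), 100% of them on the same chromosome.

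Genes were kept by filterByExpr (minimum count 10, minimum total 15), scaled by TMM and tested with edgeR 4.0.16 (R 4.3.3), two-sided, by the quasi-likelihood test with 1 mean per group and Benjamini-Hochberg adjustment over 12622 genes. Levels are CPM over the TMM-scaled total. In each gene the pair (companions or CD8αα groups) whose means of log2(CPM + 0.5) differed more set the difference, and within it the group farther from the mean of the other 3. The test was checked on simulated counts. A count of 0 allows 3 reads, and floors cover counting error only. Same-numbered libraries deviated together (correlation above 0.1) in all 3 pairs of CD8αβ IEL with CD8αα from CD8αβ (0.112 to 0.350) and in 1 of the other 15 pairs (-0.0706 to 0.101). The labels do not say what a number marks, so a block within the CD8αβ progeny was added after seeing the data. No libraries of a group agreed within sampling noise (chi-square per gene of 11.4 to 60.2).

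Named genes were Zbtb7b, Runx3, Themis, Cd4, Cd8a and Cd8b1. In each class the 6 genes with the largest interaction and the 6 with the smallest p were added, predicted genes and small RNAs left out, among genes whose highest group mean was above 40.1 CPM. The 8 largest opposite changes and up to 4 called members of each list followed. T cell and innate lymphoid markers, Tbx21, Ifng, Gzmb and the genes nearest to the threshold were added. The members, lists and rule were chosen with earlier results of these data known. Constant-region rows of the T cell receptor were not analysed here. Promoter sequences are from RefSeq (GRCm38.p6). Alternatives covered normalisation, filter, threshold, replicate block, the DESeq2 1.42.0 Wald test and left-out libraries.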

Additional observations from a re-analysis of the deposited data

Results flagged for a closer look

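A test of the difference itself set these results apart: the change from companion to CD8αα differed between the CD4 and the CD8αβ progeny for 323 genes (edgeR's quasi-likelihood test). The values below are interaction log2 fold changes, negative where the change was lower in the CD4 progeny. Cd4, Cd8a and Cd8b1 are among the 323 genes, but were fixed by sorting and are no finding. Of the 75 called genes listed, 45 passed whichever single library was left out, and the calls that were lost are given above. The search for a single library far from its group was not run, because groups held 3 libraries.

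Where CD4 IEL set the difference, the interaction was -15.28 for Il17re, -11.13 for Hpn, -10.70 for Il23r, -7.34 for Cd4, -5.28 for Maf, -5.06 for Podnl1 and -4.20 for Rnase4. It was -4.05 for Il1r2, -4.02 for Tmem176b, -3.72 for Furin, -2.32 for Hk2, -1.25 for Zfp36 and -1.07 for Il12rb1. On the positive side it was 1.02 for Serpinb6b, 1.33 for Nkg7, 2.14 for Itgax, 2.22 for Ccl5, 2.27 for Ccl3, 3.23 for H2-Aa and 3.57 for Car2. It was 5.35 for Cd8a.

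Where CD8αα from CD4 set the difference, the interaction was -5.20 for Csf2, -3.06 for Serpina3f, -1.71 for Egr2, -1.67 for Kcnk5, -1.62 for Il4ra, -1.61 for Jun and -1.58 for Pdk1. It was -1.52 for Nr4a1, -1.44 for Tnf, -1.29 for Cish, -1.28 for Zfp36l1 and -0.93 for Cd69. On the positive side it was 1.63 for Prf1, 3.15 for H2-Eb1 and 5.55 for Klre1.

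Where CD8αβ IEL set the difference, the interaction was -9.41 for Klrb1b, -5.75 for Tnfsf8, -5.23 for Sept8, -5.06 for Il12rb2, -3.36 for Tgfb3, -2.19 for Pecam1 and -1.95 for Itga2. It was -1.92 for Zbtb7b and -1.67 for Klrb1c. On the positive side it was 1.18 for Cenpa, 1.31 for Cdk1, 1.44 for Cd3d, 1.75 for Tk1, 1.84 for Ube2c, 2.50 for Havcr2 and 2.66 for H2-Ab1. It was 3.39 for Ly6c2, 3.61 for Crtam, 3.68 for Gzmk, 5.32 for Klrk1, 5.94 for Klrc2, 6.86 for Serp2 and 7.09 for Klrc1. It was 7.64 for Tnfsf4 and 10.32 for Cd8b1.

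Where CD8αα from CD8αβ set the difference, the interaction was -10.86 for Col1a2, -6.08 for Plat, -5.02 for Col27a1, -3.54 for Grb10, -2.23 for Tex2, -2.09 for Tmem154 and -1.43 for Bcl2l1. On the positive side it was 2.20 for Icos, 2.43 for Ltb, 2.57 for Gmfg, 2.58 for Itga4, 2.80 for Sh2d1a, 2.98 for Ptpn13 and 4.96 for Fas.

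The fitted values of Il17re, Hpn, Il23r, Klrb1b, Tnfsf4, Col1a2, Plat, Csf2 and Grb10 rest on a group with at most 3 reads, so their size depends on the prior count and is no bound.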

How the results depend on the processing

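For the 75 called genes named above other than Gem, Dbf4 and Atp9a, and for Themis and Runx3, the interaction kept its sign in the settings run for each; other genes were not followed through all settings. DESeq2's Wald test called 817 genes, of which CD4 IEL, CD8αα from CD4, CD8αβ IEL and CD8αα from CD8αβ set 285, 53, 405 and 74. In the same order, a test against a minimum of 2-fold (glmTreat) called 65 genes (14, 4, 36 and 11). The CD8αα libraries with Y-linked transcripts alone, 1 per group and so assumed to vary like the other groups, gave 13 (4, 0, 5 and 4), and those without them 109 (20, 13, 61 and 15). Leaving out 1 library gave 147 to 368 genes, with 35 to 116 set by CD4 IEL, 13 to 24 by CD8αα from CD4, 70 to 206 by CD8αβ IEL and 17 to 40 by CD8αα from CD8αβ. For the class counts and the total, the cause of these shifts was not tested, except that fewer libraries entered the fits by construction. DESeq2's size factors in edgeR gave 327 genes, library totals alone 327, no low-count filter 388, a minimum count of 50 344, and robust empirical Bayes, added after seeing the data, 347. With a pseudocount of 0.1 or 2 the class set by CD8αα from CD8αβ held 34 or 36 genes. Among libraries of other groups, 8 of 12 libraries correlated best with one of their own number. The labels do not say what a number marks, so whether it pairs libraries outside the CD8αβ progeny was not settled. A fit with the replicate block over all groups called 356 genes, 291 of them among the 323. Of the named genes it lost Hpn, Il12rb1, Tk1, Tnfsf4 and Ube2c (adjusted p = 0.0534, 0.0554, 0.0581, 0.0502 and 0.0559, edgeR) and gained Themis. The replicate block within the CD8αβ progeny alone called 585 genes (195, 39, 295 and 56 in the order above), lost none of the 75 named calls and gained Themis. Choosing the group farthest from the other 3 with no pair step gives the same classes by construction and was not run as a separate setting. Depth limits the genes with few reads: 33 of the 323 had at most 3 reads in a group, and 0 reads in a library allow up to 0.271 to 0.534 CPM.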
